A study of Mus musculus with 10 samples.

Results

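The fibroblast growth factor (FGF) genes examined here are 10 genes with known roles in the hair cycle, 7 ligands (Fgf1, Fgf2, Fgf5, Fgf7, Fgf10, Fgf18 and Fgf22) and 3 receptors (Fgfr1, Fgfr2 and Fgfr3). They were taken by gene symbol from the 47729 genes of the deposited count table, all 10 were found there, and all 10 passed the filter on low counts. The table holds RNA sequencing of whole skin from male C57BL/6 mice, with 5 libraries labelled 9 months and 5 labelled 24 months. No transgene, deletion or treatment is named for either group. The series' design text instead puts the younger mice at 2 months; no value used here settles the matter, and the groups carry the ages of the sample labels. Neither body site nor hair cycle stage is stated in the sources used here.

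FGFs are secreted proteins that bind tyrosine kinase receptors together with heparan sulphate and switch on the Ras and MAP kinase relay. In skin much of this signalling runs between dermis and epithelium: Fgf7 and Fgf10 are made by mesenchymal cells and act on the epithelial splice form of Fgfr2. In the mouse hair cycle Fgf5 is known as the signal that ends growth, and its loss gives long hair, whereas Fgf18 is known as a signal of the bulge that holds the follicle in rest. Hair growth is followed by regression and rest, so whole skin taken at different stages holds different follicle cells.

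Libraries held 29.3 to 56 M counts, where M stands for mega. Levels are CPM, read counts scaled to a common library size. The skin label was checked against marker genes: Krt14 of basal epidermis stood at 1015 to 2476 CPM, Krt10 of upper epidermis at 2455 to 8262 CPM, and Col1a1 of fibroblasts at 111 to 3216 CPM. Muscle was also present: the summed level of 8 skeletal muscle genes was 18250 to 51825 CPM. It was lowest in 9 months replicate 5 and highest in 9 months replicate 3. In every library it lay above the sum of 8 epidermis genes, which was 9354 to 20324 CPM. Libraries stood apart before any FGF gene was considered. The summed level of 14 growing-hair genes (root sheath and hair shaft keratins and their regulators) was 9710 CPM in 9 months replicate 4 and 29925 CPM in 9 months replicate 5. It was 61.1 to 369 CPM in the remaining young libraries and 52.6 to 122 CPM at 24 months. The summed level of 8 adipocyte genes was 14231 CPM in 24 months replicate 1 and 1722 to 4066 CPM in the 9 other libraries. That of 8 fibroblast genes was 1856 CPM in 24 months replicate 1, 1266 CPM in 24 months replicate 2 and 4854 to 11811 CPM in the 8 others. For the 10 FGF genes, results that rest on these libraries are given with and without them. In whole tissue, fewer cells of a type and less RNA per cell cannot be told apart.

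Across the 10 genes the age groups overlapped in every case, and no gene was called. With edgeR's quasi-likelihood test, adjusted by Benjamini-Hochberg over all 17668 genes tested, 0 of the 10 were called higher and 0 lower at 24 months, where the background was 0% in each direction. At an unadjusted p under 0.05, 3 of the 10 were lower at 24 months (Fgf5, Fgf7 and Fgf22) against 6.45% of all genes, and 0 were higher against 6.62%. DESeq2 called 1 of the 10 lower (Fgf5) against 2.42% of the genes it tested, and 0 higher against 2.17%. Groups that do not overlap were found for 0 of the 10, against 1.23% of all genes lower and 1.66% higher. The median log2 fold change of the 10, always given as 24 months over 9 months, was -0.08, beside -0.01 for all genes tested. The genes differed far more in their spread between libraries: the highest level was over 4 times the lowest for 4 of them (Fgf5, Fgf22, Fgf10 and Fgf18) and under 3 times for the other 6.

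**Figure D1:**
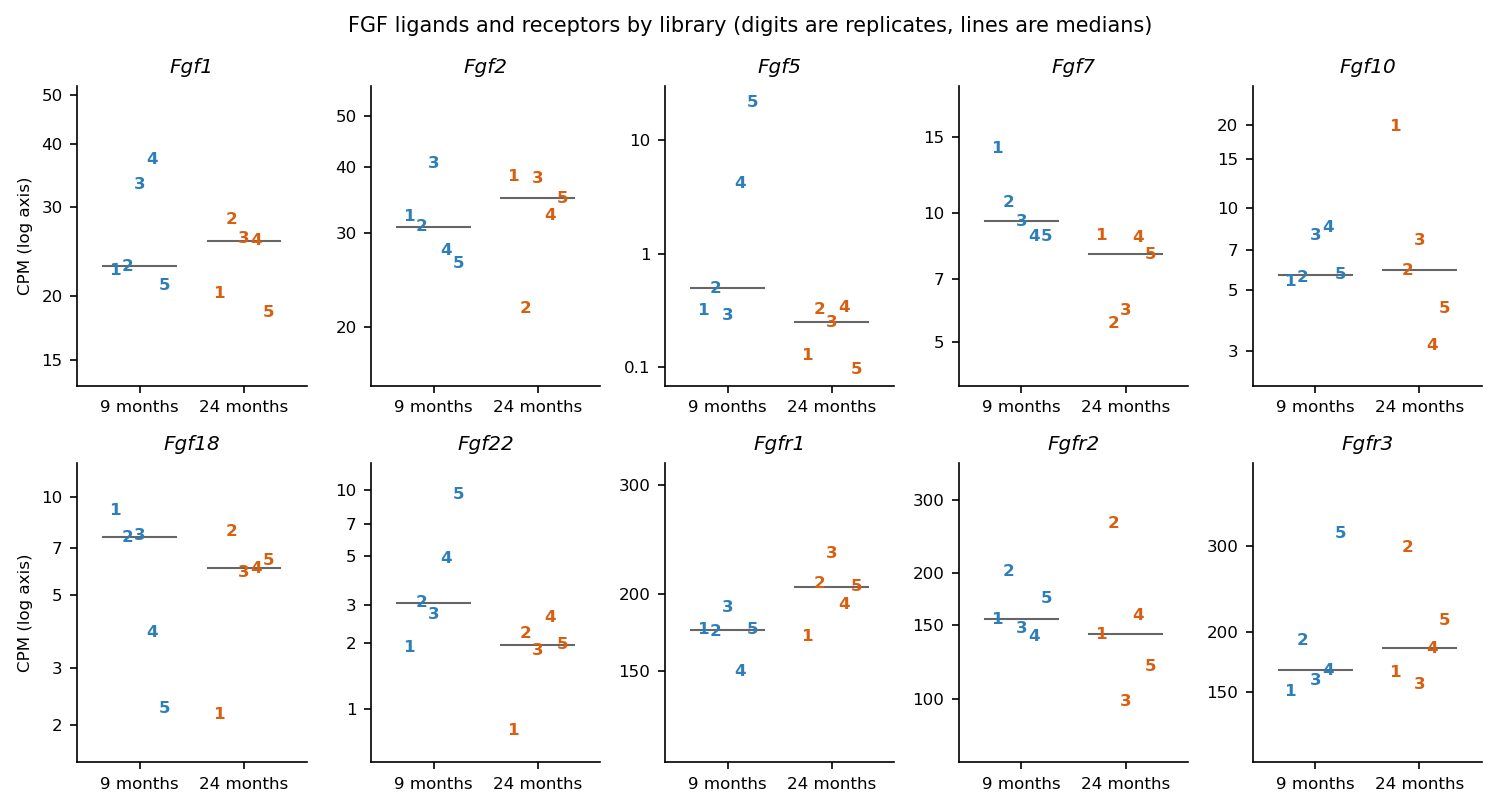
Level of each gene in CPM on a log axis, with a separate range for each panel; each digit is the replicate number of 1 library, blue at 9 months and orange at 24 months, and grey lines are group medians. Replicates 4 and 5 at 9 months stand high for Fgf5 and Fgf22 and low for Fgf18, and 24 months replicate 1 stands high for Fgf10 and low for Fgf18 and Fgf22.

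Among the young libraries, those high in growing-hair genes had the highest Fgf5 and Fgf22 and the lowest Fgf18, so the bases before their transcription starts are shown. Each line gives the stretch of up to 250 bases before the RefSeq start that lies outside annotated exons, 5′ to 3′ on the gene's strand, from the RefSeq table of GRCm38.p6. Fgf5 is at chr5:98253934-98254183 (plus strand), Fgf22 at chr10:79754859-79755075 (plus strand) and Fgf18 at chr11:33147401-33147650 (minus strand). Capitals mark matches to the letters searched.
Fgf5: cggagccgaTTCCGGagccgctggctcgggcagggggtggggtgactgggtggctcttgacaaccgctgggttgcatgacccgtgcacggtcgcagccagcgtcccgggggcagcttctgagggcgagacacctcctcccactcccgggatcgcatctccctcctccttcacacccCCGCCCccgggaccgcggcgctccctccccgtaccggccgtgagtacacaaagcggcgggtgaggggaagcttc
Fgf22: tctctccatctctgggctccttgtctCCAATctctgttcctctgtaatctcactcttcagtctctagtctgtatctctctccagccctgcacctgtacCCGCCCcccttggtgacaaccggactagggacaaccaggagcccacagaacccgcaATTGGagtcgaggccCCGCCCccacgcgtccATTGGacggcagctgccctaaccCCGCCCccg
Fgf18: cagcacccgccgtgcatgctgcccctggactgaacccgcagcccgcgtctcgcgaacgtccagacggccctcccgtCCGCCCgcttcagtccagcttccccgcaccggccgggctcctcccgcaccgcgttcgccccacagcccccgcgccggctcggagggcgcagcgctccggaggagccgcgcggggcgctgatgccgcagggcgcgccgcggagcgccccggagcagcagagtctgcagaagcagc
Both strands of the 250 bases were searched for 6 motifs, whose matches here did not overlap each other. The GC box, searched as GGGCGG, occurred 3 times for Fgf22, 1 time for Fgf5 and 1 time for Fgf18, and 32.7% of all 32851 RefSeq windows of this length hold it. The CCAAT box, searched by the letters of its name, occurred 3 times for Fgf22 and 0 times for Fgf5 and Fgf18, against 33.8% of windows. The ETS motif, searched as CCGGAA, occurred 1 time, for Fgf5, against 12% of windows. The TATA box, searched as TATAAA and held by 12.4% of windows, occurred for none of these genes. The same was true of the AP-1 motif, searched as TGANTCA and held by 6.75% of windows. It was also true of the TCF/LEF motif, searched as CTTTGA and held by 13.8% of windows. The windows were rich in CpG, with 24 for Fgf5, 15 for Fgf22 and 37 for Fgf18, beside a median of 6 over all windows. Apart from the GC box, no motif searched was held by both Fgf5 and Fgf22, the genes that stood high in the same libraries.

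Fgf5, the growth-ending ligand (ENSMUSG00000029337, plus strand of chromosome 5 from 98254184 to 98277030, GRCm38), had the widest range of the 10. It stood at 0.317, 0.499, 0.287, 4.13 and 21.5 CPM in 9 months replicates 1 to 5 and at 0.128, 0.324, 0.25, 0.337 and 0.0961 CPM in 24 months replicates 1 to 5. Only 9 months replicates 4 and 5 stood high, and the other 8 libraries, young and old, lay within 0.0961 to 0.499 CPM. These low levels rest on 4 to 15 counts a library, against 157 and 1234 counts in the high libraries. The log2 fold change was -4.54 ± 1.27 (± is the SE here and for all fold changes, with 5 libraries a group; adjusted p = 0.164 in edgeR), with lower levels in the older group on average but overlapping ranges. DESeq2 gave -4.57 ± 1.15 (adjusted p = 0.00439). Without 9 months replicates 4 and 5 the edgeR value was -0.68 ± 0.46 (adjusted p = 0.631). Fitted with the mean log2 CPM of the growing-hair list as covariate it was 0.41 ± 0.67 (adjusted p = 0.764). That list was itself lower at 24 months, with 14 of 14 genes negative and a median log2 fold change of -7.203. The median was -2.014 without 9 months replicates 4 and 5. Since the covariate differs between the age groups, the fit cannot fully separate growing-hair level from age. The libraries high in Fgf5 were those high in the growing-hair list. The genes whose pattern over the 10 libraries was most like that of Fgf5 were Gjb6, Dlx2, Msx2, Hoxc13 and Rspo4. Their log2 CPM, each centred on its own mean, differed from that of Fgf5 by a mean of 0.298 to 0.399 per library. Msx2 and Hoxc13 are themselves on the growing-hair list, so this likeness is not separate from that list.

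Fgf22, a ligand of the same subfamily as Fgf7 and Fgf10 that is made by follicle epithelium in the mouse (ENSMUSG00000020327, plus strand of chromosome 10 from 79755076 to 79758596), was likewise highest in 9 months replicates 5 and 4, over a smaller range. It stood at 1.9, 3.06, 2.72, 4.84 and 9.51 CPM in 9 months replicates 1 to 5 and at 0.803, 2.22, 1.85, 2.62 and 1.97 CPM in 24 months replicates 1 to 5. The lowest level was in 24 months replicate 1, and 9 months replicate 1 lay inside the older range. The log2 fold change was -1.22 ± 0.44 (SE; adjusted p = 0.254 in edgeR), and -0.44 ± 0.35 without 9 months replicates 4 and 5 (adjusted p = 0.673). With the growing-hair covariate, which is not separate from age, it was -0.03 (adjusted p = 0.974). Without 9 months replicate 5 alone it was -0.72 (adjusted p = 0.464). The genes most like it were Lhx2, Lmx1b, Slc6a19, Fam83c and Kif18b, at a mean difference of 0.161 to 0.201 log2 units. The opposite-strand gene Rnf126 shares 3.65% of its exon bases.

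Fgf18, the ligand of follicle rest (ENSMUSG00000057967, minus strand of chromosome 11 from 33117430 to 33147400), was at its lowest at 9 months in the same libraries where Fgf5 was high. It stood at 9.13, 7.54, 7.65, 3.84 and 2.25 CPM in 9 months replicates 1 to 5 and at 2.15, 7.84, 5.88, 6.06 and 6.39 CPM in 24 months replicates 1 to 5. Within the young group, replicates 4 and 5 lay below the other 3; within the older group, 24 months replicate 1 lay alone below the other 4. That library was not high in growing-hair genes, at a summed 52.6 CPM, and was the library highest in adipocyte genes. Over all libraries the log2 fold change was -0.10 ± 0.40 (SE; adjusted p = 0.952 in edgeR). It was -0.52 ± 0.34 without 9 months replicates 4 and 5 (adjusted p = 0.623) and 0.11 ± 0.36 without 24 months replicate 1 (adjusted p = 0.939), so the sign changed with the libraries kept. The genes most like it were Lce1e, Klk9, Ndufa4l2, 2010109I03Rik and Lce1i, at a mean difference of 0.162 to 0.229 log2 units. Per kilobase of exon, Fgf5 exceeded Fgf18 in 9 months replicate 5, at 8.59 against 1.89 CPM per kilobase, and lay below it in replicate 4, at 1.65 against 3.23.

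**Figure D2:**
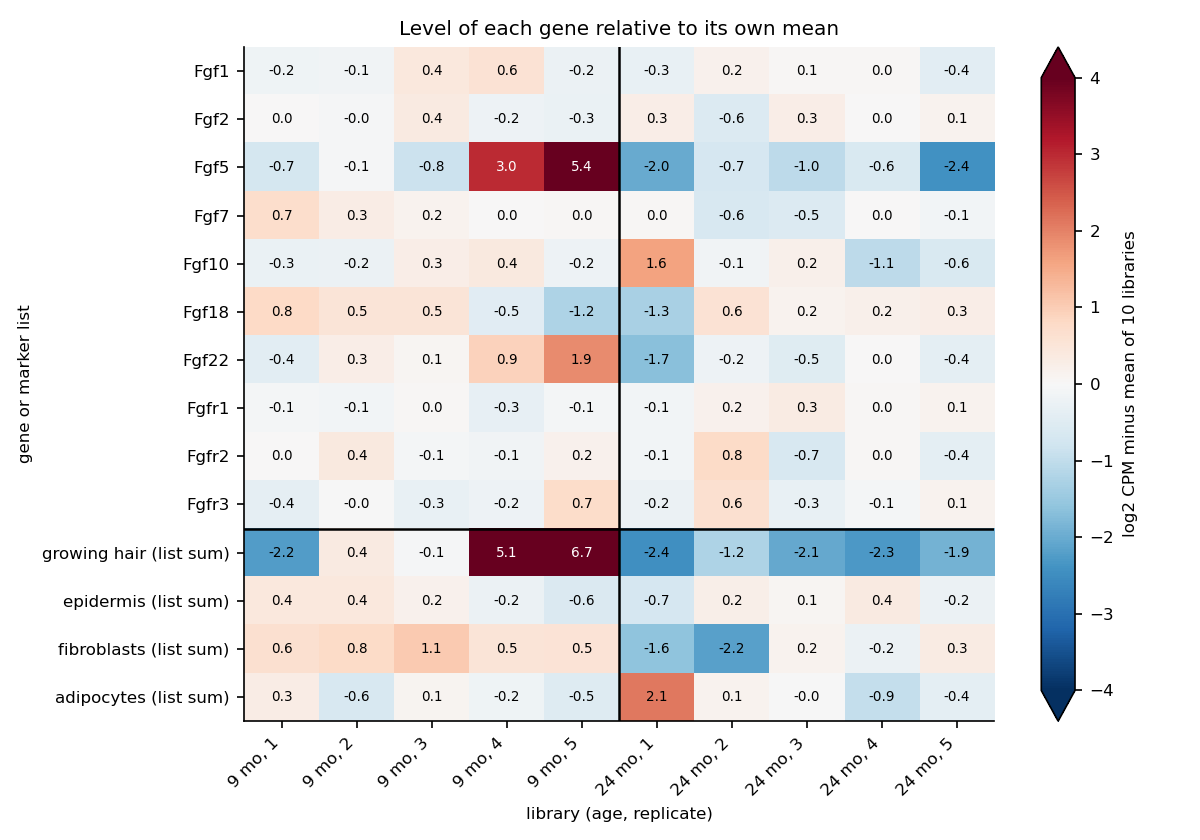
Log2 CPM of each gene (rows above the line) and of the summed CPM of 4 marker lists (rows below it) in each library, minus the mean of the 10 libraries; red is above the row's own mean and blue below it, and colours saturate at 4 log2 units. Fgf5 and Fgf22 are reddest in 9 months replicates 4 and 5, where the growing-hair sum is reddest. Fgf10 is reddest in the library where the adipocyte sum is.

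The dermal ligands did not share a pattern. Fgf7, keratinocyte growth factor (ENSMUSG00000027208, plus strand of chromosome 2 from 126034658 to 126091185), stood at 14.1, 10.5, 9.56, 8.78 and 8.81 CPM in 9 months replicates 1 to 5 and at 8.86, 5.54, 5.93, 8.76 and 8.0 CPM in 24 months replicates 1 to 5. The groups touched over a narrow band, where 24 months replicate 1 lay just above 9 months replicates 4 and 5. The other 4 older libraries lay below all the young ones, and the libraries high in growing-hair genes were here the lowest of the young. The log2 fold change was -0.48 ± 0.20 (SE; adjusted p = 0.333 in edgeR), with a lower mean at 24 months, and it was -0.62 ± 0.23 without 9 months replicates 4 and 5 (adjusted p = 0.549). The summed level of the fibroblast list was 8194 to 11811 CPM at 9 months and 1266 to 7161 CPM at 24 months. In log2 fold change 8 of its 8 genes were negative, where 48.4% of all genes tested were positive. None of the 8 was at 0 in any library. The part of this list in the Fgf7 difference was not tested.

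Fgf10 (ENSMUSG00000021732, plus strand of chromosome 13 from 118669791 to 118792115) stood at 5.39, 5.55, 7.89, 8.47 and 5.69 CPM in 9 months replicates 1 to 5 and at 19.8, 5.92, 7.56, 3.14 and 4.30 CPM in 24 months replicates 1 to 5. A single library, 24 months replicate 1, stood high. The other 4 older libraries, at 3.14 to 7.56 CPM, overlapped the lower part of the young range and reached below it. The log2 fold change was 0.30 ± 0.43 (SE; adjusted p = 0.826 in edgeR) with that library and -0.34 ± 0.27 without it (adjusted p = 0.70). The genes most like Fgf10 were 4931406C07Rik, Lpl, Slc7a10, Smoc1 and Tshr, at a mean difference of 0.19 to 0.214 log2 units. The adipocyte list, of which 8 of 8 genes were detected in every library, was highest in the library with the highest Fgf10 and lowest, at 1722 CPM, in 24 months replicate 4, the library with the lowest Fgf10; its part was not tested. The co-receptor gene Klb, which serves hormone-like FGFs and is known from fat, stood at 41.4 CPM in 24 months replicate 1, with 3.63 to 10.3 CPM elsewhere.

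Fgf1 and Fgf2, ligands that lack a classical secretion signal and are made by many cell types, varied little. Fgf1 (ENSMUSG00000036585, minus strand of chromosome 18 from 38838673 to 38929472) stood at 22.5, 22.9, 33.3, 37.2 and 21.1 CPM in 9 months replicates 1 to 5 and at 20.3, 28.4, 26.0, 25.8 and 18.6 CPM in 24 months replicates 1 to 5. Its groups overlapped over most of their range, with a log2 fold change of -0.20 ± 0.20 (SE; adjusted p = 0.719 in edgeR). Fgf2 (ENSMUSG00000037225, plus strand of chromosome 3 from 37348346 to 37410108) stood at 32.3, 30.9, 40.7, 27.9 and 26.3 CPM in 9 months replicates 1 to 5 and at 38.4, 21.6, 38.2, 32.4 and 35.0 CPM in 24 months replicates 1 to 5. The lowest library, 24 months replicate 2, and the highest, 9 months replicate 3, lay less than 2-fold apart, and the log2 fold change was 0.07 ± 0.18 (SE; adjusted p = 0.921 in edgeR). The gene Nudt6 lies on the opposite strand of Fgf2 and shares 9.44% of its exon bases; since the strand setting is not given, reads there cannot be assigned to either with certainty.

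The receptors stood far above the ligands. Fgfr1, the receptor typical of dermal cells (ENSMUSG00000031565, plus strand of chromosome 8 from 25513654 to 25575718), stood at 175, 174, 190.0, 149.6 and 175 CPM in 9 months replicates 1 to 5 and at 171, 208, 233, 192 and 205 CPM in 24 months replicates 1 to 5. It had the smallest spread of the 10 genes, and 4 of the 5 older libraries lay above all the young ones. The log2 fold change was 0.22 ± 0.12 (SE; adjusted p = 0.48 in edgeR), and it was positive in all 19 alternatives tried, from 0.16 to 0.28. The fibroblast genes, which mark the dermal cells, had a median log2 fold change of -0.64 in the same fit. Their sums were lowest in 24 months replicates 1 and 2, at 1856 and 1266 CPM. The relation of these genes to the Fgfr1 difference was not tested.

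Fgfr2, the receptor whose epithelial form binds Fgf7, Fgf10 and Fgf22 (ENSMUSG00000030849, minus strand of chromosome 7 from 130162451 to 133123350), stood at 155, 202, 147, 141 and 175 CPM in 9 months replicates 1 to 5 and at 143, 264, 98.3, 159 and 119 CPM in 24 months replicates 1 to 5. The older libraries held both the highest and the lowest level, with SDs of 64.3 CPM at 24 months and 24.6 CPM at 9 months. The log2 fold change was -0.07 ± 0.24 (SE; adjusted p = 0.946 in edgeR), and -0.39 without 24 months replicates 1 and 2. Fgfr3, a receptor of epidermis and follicle (ENSMUSG00000054252, plus strand of chromosome 5 from 33721674 to 33737068), stood at 150.4, 192, 158, 167 and 319 CPM in 9 months replicates 1 to 5 and at 165, 298, 156, 185 and 211 CPM in 24 months replicates 1 to 5. A single library of each age stood high, 9 months replicate 5 and 24 months replicate 2, and the log2 fold change was 0.04 ± 0.24 (SE; adjusted p = 0.968 in edgeR). It was 0.28 without 9 months replicate 5 and -0.14 without 24 months replicate 2. Of these, 9 months replicate 5 was high in growing-hair genes, while 9 months replicate 4, the other such library, had 167 CPM and lay with the rest. The gene-level counts add all splice forms, so the epithelial and mesenchymal forms of the receptors were not told apart. The opposite-strand gene G630022F23Rik shares 13.9% of the exon bases of Fgfr3, the largest such overlap among the 10 genes. Ctbp2, on the same strand, shares 3.04% of those of Fgfr2.

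**Figure D3:**
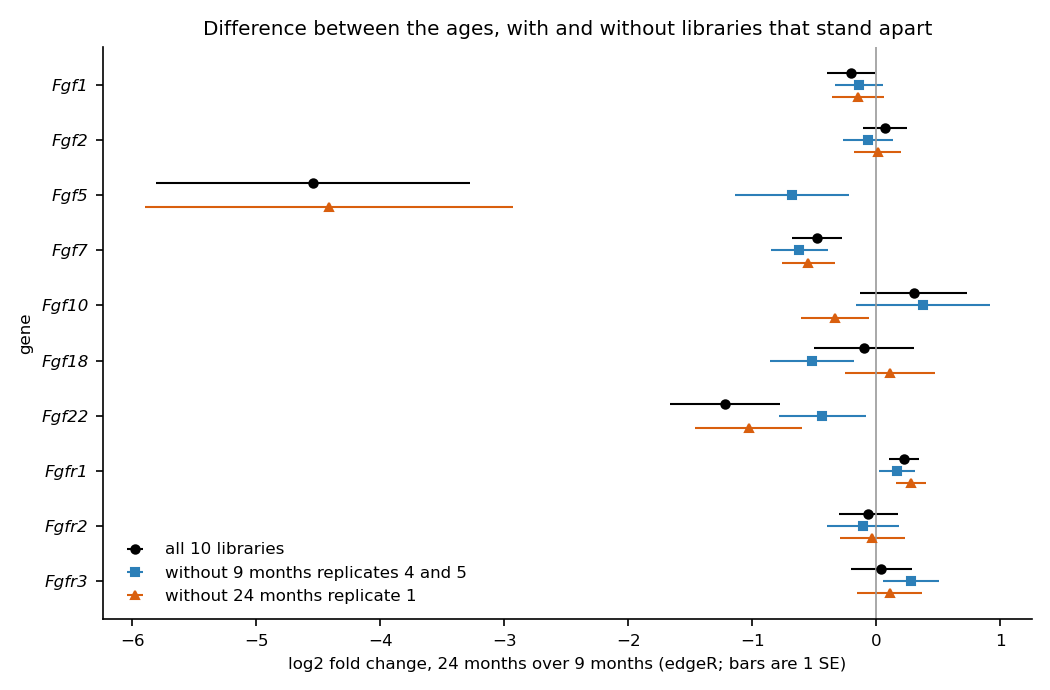
Log2 fold change of each gene, 24 months over 9 months, from edgeR; bars are 1 SE, black circles use all 10 libraries, blue squares leave out 9 months replicates 4 and 5, and orange triangles leave out 24 months replicate 1. Fgf5 moves from -4.54 to -0.68 when the young libraries high in growing-hair genes are left out, and Fgf10 changes sign without 24 months replicate 1.

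Within a library the shares of the 3 receptors do not depend on how libraries are scaled. Shares were computed from counts per kilobase of merged exons, and the size of each share depends on that choice of length. Fgfr1 took 29.3 ± 4.82% at 9 months and 32.9 ± 6.82% at 24 months (SD, n = 5 each), Fgfr2 took 26.3 ± 3.39% and 23.2 ± 4.94%, and Fgfr3 took 44.3 ± 7.04% and 43.9 ± 3.41%. The differences were 3.58, -3.16 and -0.43 percentage points, and none was called. Two-sided exact permutation tests of the difference in mean share gave p = 0.389, 0.262 and 0.952. The p adjusted over the 3 shares in these tests was 0.583, 0.583 and 0.952. With 5 against 5 libraries the smallest p possible is 0.00794. The most uneven libraries were 9 months replicate 5, with 56.3% Fgfr3 and 22.4% Fgfr1, and 24 months replicate 3, with 43% Fgfr1 and 17.4% Fgfr2. With single libraries left out, the Fgfr1 difference ran from 1.07 (without 24 months replicate 3) to 5.86 percentage points (without 24 months replicate 2), and that of Fgfr2 from -1.70 to -4.60 without the same libraries. The small difference for Fgfr3 turned to 2.56 percentage points without 9 months replicate 5 (adjusted p = 0.357) and to 3.68 without both 9 months replicates 4 and 5 (adjusted p = 0.268).

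**Figure D4:**
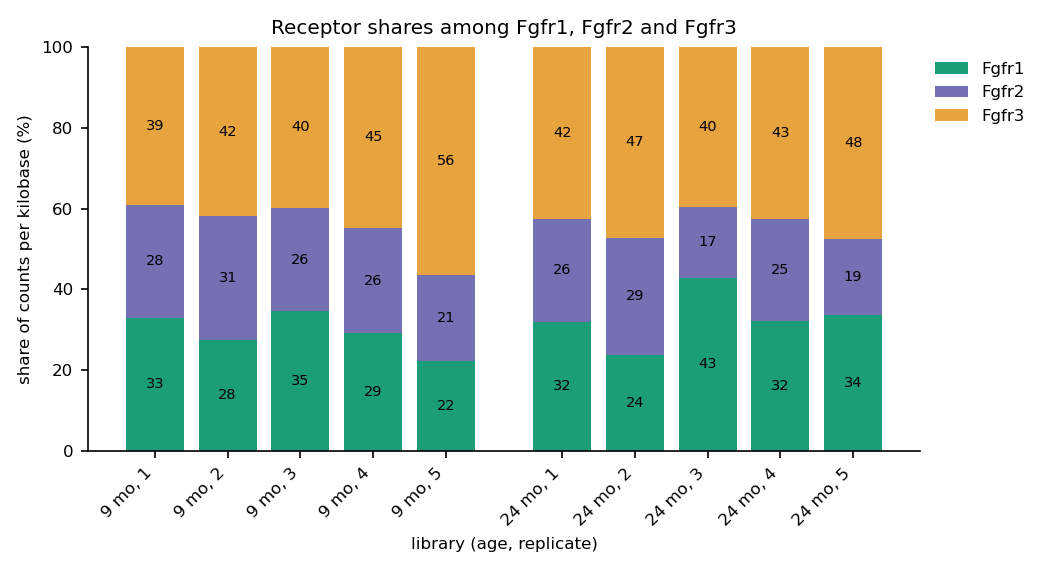
Share of each receptor in percent of the counts per kilobase of Fgfr1, Fgfr2 and Fgfr3 in each library, as stacked bars from 0 to 100. With merged exons as the length, Fgfr3 takes the largest share in every library except 24 months replicate 3, where Fgfr1 does. It takes 56.3% in 9 months replicate 5. With the longest transcript as the length, Fgfr3 is also not the largest in 9 months replicates 2 and 3.

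Per length, the receptors lay above the ligands, with looser orders within each. By the median of the 10 libraries, Fgfr3 came first at 24.5 CPM per kilobase of exon, then Fgfr1 at 18.5 and Fgfr2 at 14.6, and the lowest receptor level, 9.52 for Fgfr2 in 24 months replicate 3, lay above the highest ligand level, 8.59 for Fgf5 in 9 months replicate 5. Among ligands Fgf18 stood at 5.25, Fgf2 at 4.77 and Fgf1 at 4.46 CPM per kilobase, followed by Fgf7 at 2.71, Fgf10 at 1.26, Fgf22 at 1.08 and Fgf5 at 0.128. The step from Fgfr2 to Fgf18 held in 10 of 10 libraries with ranges apart. Fgfr3 exceeded Fgfr1 in 9 of 10 libraries and Fgfr1 exceeded Fgfr2 in 8 of 10, with ranges that overlapped. Fgf18 exceeded Fgf2 in 6 of 10 libraries, Fgf2 exceeded Fgf1 in 7 of 10 and Fgf10 exceeded Fgf22 in 6 of 10, so these neighbours did not differ beyond their spread. Fgf22 exceeded Fgf5 in 9 of 10 libraries, the exception being 9 months replicate 5, where Fgf5 at 8.59 CPM per kilobase was the highest of the ligands. With the longest annotated transcript as the length, Fgf1 moved up to rank 4, ahead of Fgf18 and Fgf2. The receptors then kept their order by median, at 41.4 for Fgfr3, 36.2 for Fgfr1 and 34.2 for Fgfr2. The counts of libraries given above are for merged exons and change with the length used.

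**Figure D5:**
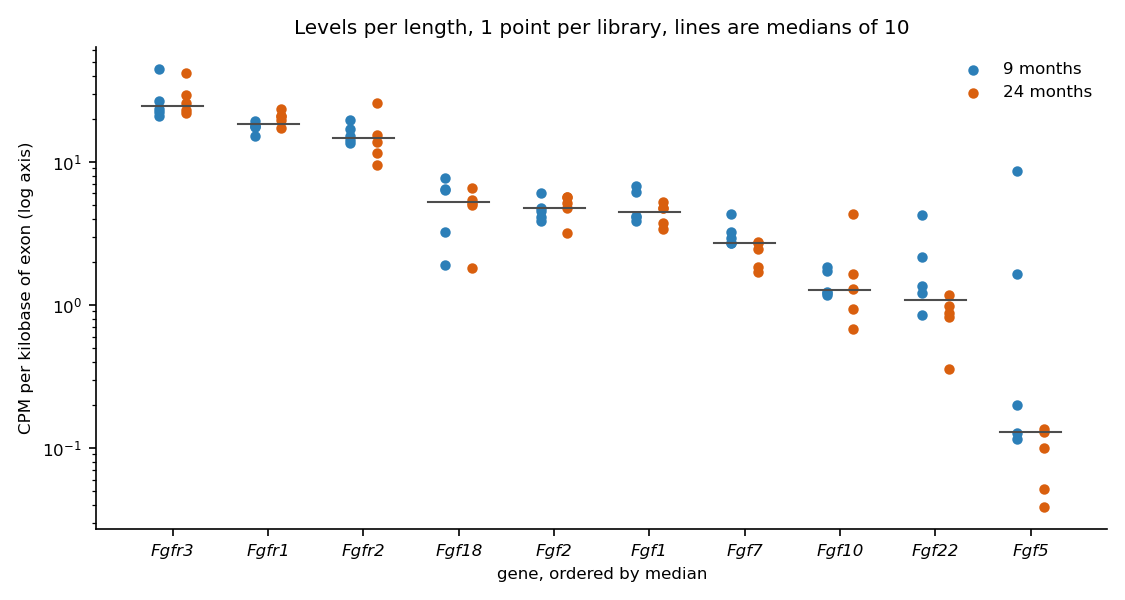
Level of each gene in CPM per kilobase of merged exons on a log axis, ordered by the median of 10 libraries (grey lines); each point is 1 library, blue at 9 months and orange at 24 months. The 3 receptors form the upper group and Fgf5 spans the widest range, from 0.0384 to 8.59.

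The rest of the pathway was followed in 8 lists of 96 genes, of which 95 were in the table and 85 passed the filter. Of the 85, 0 were called higher and 0 lower at 24 months in the edgeR test. In log2 fold change 33 were positive and 52 negative, where 48.4% of all genes tested were positive. Their median was -0.07. At an unadjusted p under 0.05, 4 were higher and 6 lower, against 6.62% and 6.45% of all genes. DESeq2 called 1 higher (Fosl1) and 1 lower (Fos), against 2.17% and 2.42%. Groups that do not overlap were found for 2 genes, both lower at 24 months (Sdc1 and Hras), against 1.23% of all genes lower and 1.66% higher. The unadjusted counts lie near the background and the DESeq2 counts below it.

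Of the 11 other secreted ligands, only Fgf6, Fgf9 and Fgf16 passed the filter, all at low levels. Fgf9 stood at 1.36 to 6.45 CPM at 9 months and 1.58 to 3.15 CPM at 24 months. Its log2 fold change was -0.67 ± 0.36 (SE; adjusted p = 0.474 in edgeR). It was -0.34 without 9 months replicate 1 and -1.05 ± 0.30 without 9 months replicates 4 and 5 (adjusted p = 0.514 in edgeR). Fgf6, a ligand of muscle, had -0.84 ± 0.44, which was -0.48 without 9 months replicate 3 and -1.06 without 9 months replicate 1. Fgf16 had -0.47 ± 0.51, which was -0.07 without 9 months replicate 1 and -0.80 without 9 months replicates 4 and 5. Fgf15 had 0 counts in every library. By counting error alone, that leaves room for an expected count of up to about 3 a library. Fgf8 had 1 count in each of 2 young libraries and 0 in the other 8 libraries. Of the intracellular homologous factors, which are not secreted and do not act through these receptors in the usual way, Fgf13, Fgf14 and Fgf11 were tested, with log2 fold changes of -0.22, 0.11 and 0.01.

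Of 10 other receptors and co-receptors 9 were tested, 3 positive and 6 negative. Klb had the smallest p, with a log2 fold change of 1.19 ± 0.60 (SE; adjusted p = 0.433 in edgeR), which was 0.18 without 24 months replicate 1. Flrt3 and Flrt2, membrane proteins that bind FGF receptors, had -0.52 ± 0.32 and -0.39 ± 0.24, the latter -0.10 without 24 months replicates 1 and 2. Flrt3 reached 152 CPM at 9 months against 43.0 to 54.5 CPM at 24 months, and its value was 0.10 without 9 months replicates 4 and 5.

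Heparan sulphate core proteins were negative in 10 of 12, where 48.4% of all genes tested were positive. Their median log2 fold change was -0.23, and -0.16 without 9 months replicates 4 and 5. Sdc1, the main syndecan of epithelium, stood at 433, 488, 397, 488 and 906 CPM in 9 months replicates 1 to 5 and at 222, 382, 372, 387 and 369 CPM in 24 months replicates 1 to 5. All older libraries lay below all young ones, as for 1.23% of all genes, and the log2 fold change was -0.65 ± 0.25 (SE; adjusted p = 0.277 in edgeR), or -0.35 without 9 months replicates 4 and 5. The glypican Gpc3 had -0.64 ± 0.33, and -0.21 without 24 months replicates 1 and 2, where it stood at 17.9 and 12.5 CPM against 40.6 to 48.6 CPM in the other older libraries. Gpc4 had -0.39 ± 0.19, which was -0.19 without 9 months replicate 5 and -0.13 without replicates 4 and 5. Of the 13 heparan sulphate enzymes 8 were positive; the heparanase Hpse had 0.50 ± 0.19, the sulphotransferase Ndst2 0.30 ± 0.12 and Hs2st1 -0.32 ± 0.14 (adjusted p = 0.281, 0.291 and 0.378 in edgeR).

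The 23 relay genes had a median log2 fold change of -0.01. Hras, the small GTPase of the relay, stood at 141 to 243 CPM at 9 months and 108 to 139 CPM at 24 months without overlap, as for 1.23% of all genes, a log2 fold change of -0.48 ± 0.17 (SE; adjusted p = 0.254 in edgeR). The adaptor Gab1 had -0.28 ± 0.15 and the kinase gene Map2k2 -0.24 ± 0.15. Feedback inhibitors, which FGF signalling switches on and which then damp it, were positive in 6 of 11, with a median of 0.10; Spry2 had 0.29 ± 0.16, and 0.12 without 9 months replicates 4 and 5. Dusp5 had -0.56 ± 0.31, which was -0.12 without 9 months replicate 5 and -0.08 without replicates 4 and 5. Dusp4 had 0.45 ± 0.56, which was 1.07 without 9 months replicate 5 and 0.06 without 24 months replicate 1. Dusp6, Etv4 and Etv5, widely used readouts of FGF signalling, fell outside the rule for named genes and were chosen after their values were seen. They were highest in 9 months replicate 5, at 88.7, 30.9 and 17.0 CPM. In 9 months replicate 4 they stood at 41.3, 16.1 and 10.3 CPM, in 9 months replicates 1 to 3 at 30.2 to 44.2, 6.48 to 8.95 and 7.64 to 10.9 CPM, and at 24 months at 24.7 to 67.3, 6.17 to 12.4 and 7.31 to 11.9 CPM. They had log2 fold changes of -0.15, -0.51 and -0.31 (adjusted p = 0.913, 0.653 and 0.638 in edgeR). Not every feedback inhibitor stood high in 9 months replicate 5. Without that library the Spry2 value fell from 0.29 to 0.21, so Spry2 was not raised there. Whether FGF signalling differed in that library was not tested.

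The target transcription factors held the extremes. Fos stood at 582, 145, 282, 26.0 and 27.2 CPM in 9 months replicates 1 to 5 and at 22.5 to 34.1 CPM at 24 months, so that here 9 months replicates 1 to 3 stood high and replicates 4 and 5 lay with the older mice. Its log2 fold change was -2.90 ± 0.79 (SE; adjusted p = 0.164 in edgeR), it was called by DESeq2 (adjusted p = 0.00889), and without 9 months replicates 4 and 5 it was called by edgeR at -3.57 (adjusted p = 0.0374), the 1 gene of 18036, or 0.00554%, so called. Fosl1 reached 39.0 CPM in 24 months replicate 3 and 62.5 CPM in 24 months replicate 5, and lay between 2.33 and 3.68 CPM elsewhere. Myc reached 103 and 105 CPM in the same pair of libraries and lay between 32.1 and 54.3 CPM elsewhere. Their log2 fold changes were 2.83 ± 0.91 and 0.87 ± 0.26 (adjusted p = 0.213 and 0.181 in edgeR). The libraries with high Fos and those with high Fosl1 were not the libraries that stood high in Fgf5, Fgf22 or Fgf10.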

How the data were processed

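Levels of messenger RNA were measured in skin of 10 libraries, 5 labelled 9 months and 5 labelled 24 months, with groups from the age label and replicate numbers in the order listed. Each title carries its own number, read as 1 mouse per library; if libraries shared a mouse, the p-values would reflect no more than technical spread. Per the labels' protocols an Illumina mRNA kit was used, and the tools CASAVA 1.7, STAR 2.4.1d and featureCounts 1.4.6-p4 and the build GRCm38 are named, without roles, per the submitters' processing notes; strand setting and annotation release are not stated in the sources used here. The authors deposited whole-number counts per Ensembl gene, not normalised, and these were the basis of every result. A table that the authors deposited as RPKM was only checked: relative to counts and library totals its values differed between libraries by a median of 2.68-fold over 8455 genes, so it was not used for levels.

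Genes were kept by filterByExpr of edgeR 4.0.16 (R 4.3.3), which left 17668, with scaling by TMM, a trimmed mean of log ratios; the robust quasi-likelihood F test had no covariate, and an adjusted p under 0.05 was a call. SE was derived from the F statistic. DESeq2 1.42.0 and limma 3.58.1 served as alternatives. On simulated data with 17668 genes the test recovered 48% of genes changed 2-fold and 94% of those changed 4-fold, with 10 false calls. There, changed genes were drawn above a floor of mean level, genes were independent, and libraries of a group shared the same expected level. The real young group was split in growing-hair genes, so these recovery rates need not hold for it or for Fgf5. Lengths and coordinates are from GENCODE vM21, also GRCm38, by identifier (47224 of 47729 matched); Fgf2, Fgf10, Fgf22 and the 3 receptors share exon bases with other genes and are uncertain there. RefSeq start windows were found for 8 of the 10 genes. The 10 genes and all lists were chosen with earlier results of these data known. Named genes were the 10, the 3 with the smallest p in each pathway list, and the 5 most alike (mean absolute difference of centred log2 CPM, prior count 2) for each of the 10 with a log2 range above 2. Counting error only is covered by limits on 0 counts.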

Additional observations from a re-analysis of the deposited data

Results flagged for a closer look

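In 3 of 26 groups of 5 libraries tested by Dixon's gap ratio (10 genes and 3 receptor shares at 2 ages), 1 library lay far from the other 4. The limit used flags about 1 in 20 groups of independent, normally distributed values. CPM need not be normally distributed, and the 3 shares of a library depend on each other. The number flagged therefore cannot be set against that rate. For Fgf5 this was 9 months replicate 5 at 21.5 CPM, where the next library had 4.13 CPM and growing-hair genes were also at their highest. For Fgfr3 it was the same library at 319 CPM, against 150.4 to 192 CPM in the other young mice. For Fgf10 it was 24 months replicate 1 at 19.8 CPM, against 3.14 to 7.56 CPM in the other older mice, in the library highest in adipocyte genes.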

How the results depend on the processing

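No paired analysis was possible because the labels give the groups no shared replicate numbers. In 19 alternatives the number of FGF genes called stayed at 0 higher, and at 0 lower except under DESeq2, which called 1 (Fgf5). Over all genes DESeq2 called 433 higher and 483 lower; edgeR called 1 higher with no filter on low counts, 1 lower without 9 months replicates 4 and 5, 1 lower with growing-hair score added as covariate, and 0 to 8 higher with single libraries left out (8 without 24 months replicate 4). Of the pathway genes, 1 was called higher and 1 lower by DESeq2, and 1 lower both without 9 months replicates 4 and 5 and with the covariate. The sign held in all 19 alternatives for 4 of the 10 FGF genes (Fgf1, Fgf7, Fgfr1 and Fgf22, the last at -0.03 with the covariate) and for 18 of 24 other named genes. None of the values that changed sign was called by edgeR, and the causes were not tested. Without 9 months replicates 4 and 5 the log2 fold change was -0.065 for Fgf2, -0.10 for Fgf11 and 0.10 for Flrt3, and the Fgfr3 share differed by 3.68 percentage points. With the growing-hair covariate it was -0.16 for Fgf2, 0.41 for Fgf5, -0.11 for Fgf11, 0.40 for Flrt3, 0.0060 for Gpc4 and 0.083 for Dusp5. The covariate itself differs between the age groups, so these values do not separate growing-hair level from age. Without 24 months replicates 1 and 2 the log2 fold change was -0.40 for Fgf10, 0.011 for Fgf18, -0.10 for Fgfr3 and -0.094 for Klb. Under limma-voom it was -0.016 for Fgf10 and 0.040 for Fgf18, and for Fgf11 it was -0.0049 under DESeq2, -0.0019 with RLE size factors and -0.0090 with no filter. With single libraries left out it ranged from -0.34 to 0.52 for Fgf10, -0.31 to 0.11 for Fgf18, -0.34 to 0.062 for Fgfr2, -0.14 to 0.28 for Fgfr3, -0.068 to 0.29 for Fgf14 and -0.052 to 0.078 for Fgf11, and the Fgfr3 share difference from -1.75 to 2.56 percentage points. Depth limits Fgf5, whose low libraries hold 4 to 15 counts.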
